A study of Arabidopsis thaliana with 6 samples.

Results

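Of 60 listed SAUR genes of Arabidopsis thaliana, 3 could be followed here: SAUR10 (AT2G18010), SAUR57 (AT3G53250) and SAUR58 (AT1G43040). They are the listed genes for which the platform annotation gives a probe set, the group of short array probes that reads a transcript, with exactly that gene and no other. Each of the 3 had 1 such probe set. The other 57 listed genes are not analysed here, among them all 28 that lie in 7 runs of neighbouring SAUR genes, such as the 8 from AT1G29420 to AT1G29510. The values below therefore describe 3 genes and do not speak for the family.

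SAUR stands for small auxin up RNA. SAUR genes encode short plant proteins, and many of them are switched on within minutes by auxin, the growth hormone. The SAUR proteins that have been studied bind and inhibit phosphatases of the PP2C.D clade, which otherwise remove an activating phosphate from proton pumps of the plasma membrane. Active pumps acidify the cell wall, and the wall then yields and the cell elongates. SAUR10 is known as a growth gene that the transcription factor FRUITFULL represses in stems and branches.

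Whole Col-0 seedlings were grown for 14 days under constant light in liquid medium with gentle shaking. They received either chitooctaose at a final 1 µM or the same 20 µl of water, and were frozen after 30 min. Chitooctaose is a chain of N-acetylglucosamine units, the sugar of the chitin in fungal cell walls, which plants sense as a sign of a fungus. Each treatment had 3 arrays, described as biological replicates, and the labels name no transgene or mutation. Whole seedlings mix all organs, so fewer cells of a type and less RNA per cell cannot be told apart. Of the shoot markers 3 of 6 had a probe set with exactly 1 gene, with log2 changes of -0.05 (LHCB4.1), -0.08 (LHCB4.2) and 0.20 (LHCB4.3). Of the root markers 2 of 6 had one, with changes of 0.03 (PYK10) and -0.38 (EXPA7). None of these 5 passed the test, and mean intensities in water ran from 137 for EXPA7 to 9440 for PYK10. The part of organ composition in the results below was not tested.

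The comparison asked whether transcripts of these SAUR genes differed between seedlings exposed to chitooctaose and to water. None of the 3 rose and none fell (limma, Benjamini-Hochberg adjusted p under 0.05), and none had an unadjusted p under 0.05. Over all 22746 tested probe sets, 4.24% rose and 0.805% fell, and 14.0% had an unadjusted p under 0.05. With 3 genes, counts of 0 are near those shares. The fitted log2 changes were -0.42 for SAUR57, -0.20 for SAUR10 and 0.35 for SAUR58, with a median of -0.20 against -0.04 over all tested probe sets. The 3 genes did not share a direction.

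SAUR57 gave the brightest signal of the 3. Its intensity was 60.0, 66.4 and 82.2 in the water arrays and 33.8, 63.0 and 64.2 in the chitooctaose arrays. The groups overlapped, and chitooctaose replicate 1 stood below all other arrays. The means were 69.5 ± 11.4 in water and 53.7 ± 17.2 in chitooctaose (SD, n = 3), a fitted ratio of 1.34-fold lower with chitooctaose. The limma adjusted p was 0.645, and the 95% interval of the change ran from 2.22-fold lower to 1.24-fold higher. Without chitooctaose replicate 1 the log2 change was -0.12 in place of -0.42.

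SAUR10 had intensities of 35.6, 39.5 and 55.2 in water and of 36.6, 47.8 and 29.1 in chitooctaose. The highest array was a water array and the lowest a chitooctaose array, while the other 4 were interleaved. The means of 43.5 ± 10.4 and 37.8 ± 9.37 (SD, n = 3) differed by less than the spread within either group. The fitted change was 1.15-fold lower with chitooctaose, with a limma adjusted p of 0.816 and a 95% interval from 1.77-fold lower to 1.34-fold higher. Without water replicate 3 the log2 change was -0.02, and without chitooctaose replicate 3 it was -0.03.

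SAUR58 was close to the floor of 16, below which intensities were set to 16 before the log2 was taken. It read 9.9, 22.8 and 20.2 in water and 22.1, 28.9 and 23.8 in chitooctaose. The lowest array was a water array below the floor, and the groups overlapped between 22.1 and 22.8. Means were 17.6 ± 6.85 in water and 24.9 ± 3.53 in chitooctaose (SD, n = 3). The fitted ratio was 1.27-fold higher with chitooctaose, with a limma adjusted p of 0.474 and a 95% interval from 1.06-fold lower to 1.71-fold higher. As 1 water array was at the floor, this size is not exact, and the fitted log2 change grew from 0.35 to 0.58 when the floor was 1. Without water replicate 1, the array below the floor, it was 0.21.

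**Figure D1:**
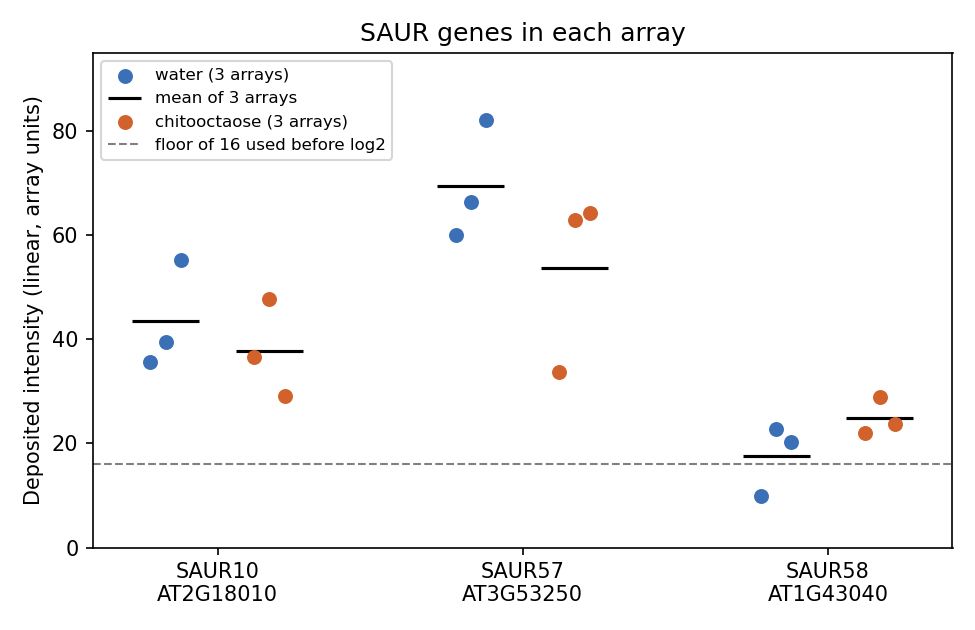
Deposited intensity (linear scale, array units) of SAUR10, SAUR57 and SAUR58 in the 3 water arrays (blue) and 3 chitooctaose arrays (orange), with black bars at the group means and a dashed line at the floor of 16. Water and chitooctaose points overlap for each gene, and 1 water array of SAUR58 lies below the floor, at 9.9.

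For none of the 3 genes were all chitooctaose arrays on one side of all water arrays, which occurred for 10.2% of all tested probe sets on the lower and 8.96% on the higher side. The widths of the intervals set what could be seen. A 2-fold fall of SAUR57 lay within its interval, while 2-fold changes of SAUR10 intensity in either direction lay outside its own. SAUR10 read only 29.1 to 55.2, and how much of that was background is not known. Its interval therefore does not exclude a 2-fold change of the transcript. For SAUR58 the interval depended on the floor: with a floor of 1 it ran from 1.24-fold lower to 2.77-fold higher, so that it held a 2-fold rise. The missing calls do not show that the genes were unchanged. All 3 genes were among the dimmest 40% of probe sets. In that part of the array 2.23% of probe sets were called, against 6.92% of the brighter ones. With the probe sets split by brightness into 10 bins of equal size, SAUR58 lay in bin 1, the dimmest, where 0.308% rose and 0.352% fell. SAUR10 lay in bin 2, with 1.36% and 0.659%, and SAUR57 in bin 3, with 2.46% and 0.396%. The smallest called log2 changes in bins 1 to 3 had sizes of 0.47, 0.55 and 0.67, each above that of the SAUR gene in the same bin. Brightness is used here as signal over background, and the intensities of different probe sets are not compared as transcript amounts.

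**Figure D2:**
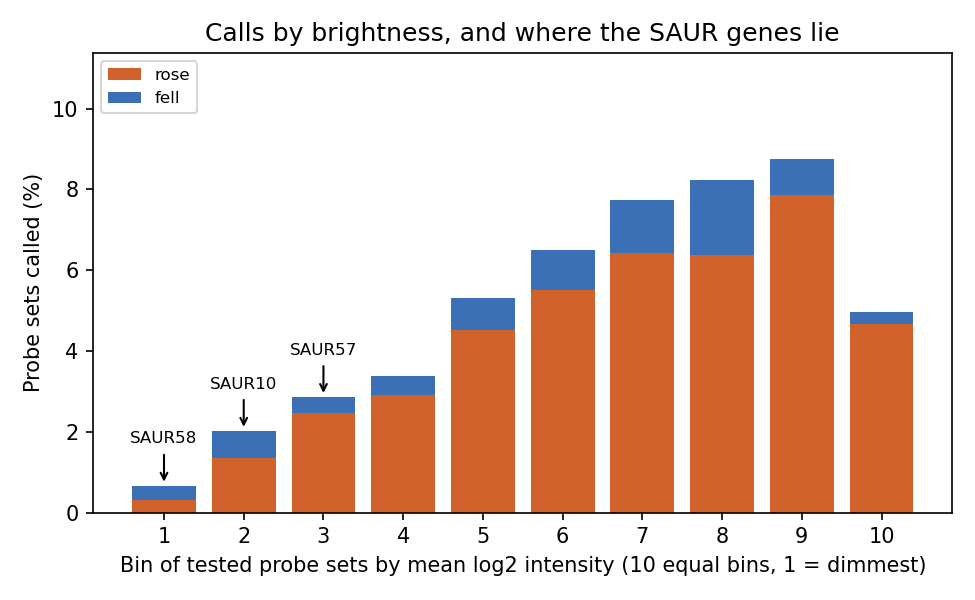
Percent of probe sets that rose (orange) or fell (blue) with chitooctaose (limma adjusted p under 0.05) in each of 10 equal bins of the 22746 tested probe sets by mean log2 intensity, with arrows at the bins that hold the SAUR genes. SAUR58, SAUR10 and SAUR57 lie in the 3 dimmest bins, where fewer probe sets were called than in the brighter ones.

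Other genes of auxin signalling and of the SAUR growth pathway were set beside the 3. Of 115 listed, 21 had a probe set with exactly 1 gene, and of these 1 rose, 0 fell and 20 missed the threshold, a share near the background of 5.04% called in either direction. Their median log2 change was -0.02. Of the 21, 2 were lower and 2 were higher in every chitooctaose array than in every water array. These shares were near those over all tested probe sets, 10.2% lower and 8.96% higher. The lists of auxin receptors, auxin response factors, auxin transporters and plasma membrane proton pumps had no gene with such a probe set. The annotation used here left 8730 tested probe sets without a name. Whether any of these read listed genes, SAUR genes included, was not examined.

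Upstream of SAUR genes, the 7 followed genes of the Aux/IAA family, which encodes repressors of auxin-responsive transcription, had log2 changes from -0.46 to 0.15 and none passed. IAA18, their brightest, read 838, 657 and 832 in water and 860, 927 and 634 in chitooctaose, so the groups overlapped (limma adjusted p = 0.951). IAA34, with a log2 change of -0.46, read 27.7, 35.5 and 31.9 in water and 20.5, 27.9 and 21.2 in chitooctaose (limma adjusted p = 0.289). Sizes are not ranked in this list, because IAA31 and IAA33 were below the floor on 4 of 6 arrays each, and with a floor of 1 the change of IAA31 was 1.22 in place of 0.06 (limma adjusted p = 0.731). The 4 YUC genes for auxin synthesis had changes from -0.28 to 0.31, and none passed. The value of -0.28 was that of YUC4, which was below the floor on 3 of 6 arrays. With a floor of 1 its change was -0.13. YUC2 had all 3 chitooctaose arrays above the water arrays, with means of 143 ± 29.1 and 114 ± 8.11 (SD, n = 3), but missed the threshold (limma adjusted p = 0.512).

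Like SAUR genes, several GH3 genes are early auxin targets, and their enzymes join auxin to amino acids. None of 5 passed, with log2 changes from -0.24 to 0.27. GH3.5, their brightest, had means of 597 ± 79.5 for water and 715 ± 58.1 for chitooctaose (SD, n = 3, limma adjusted p = 0.390). GH3.17 had all 3 chitooctaose arrays below the water arrays, with means of 288 ± 18.2 and 340 ± 18.0 (SD, n = 3, limma adjusted p = 0.211). HAT2, an auxin-induced homeodomain factor gene, read 352, 347 and 363 in water and 251, 256 and 317 in chitooctaose. The HAT2 groups did not overlap and the log2 change was -0.37, but the limma adjusted p was 0.159. It passed only without chitooctaose replicate 3, the chitooctaose array nearest to water (log2 change -0.48, limma adjusted p = 0.0276). With any other single array left out it missed the threshold (limma adjusted p from 0.267 to 0.376).

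A list by locus code held 9 genes as PP2C.D phosphatases, a clade with members that studied SAUR proteins inhibit. Of these 9 genes, 4 had a probe set with exactly 1 gene, and of those 4 AT3G55050 rose. The gene table names none of the 4, so their place in the clade rests on the list. Its intensity was 431, 413 and 419 in water and 642, 654 and 637 in chitooctaose, so each chitooctaose array lay above each water array by far more than the spread within a group. The means were 421 ± 9.16 and 644 ± 8.72 (SD, n = 3), a rise of 1.53-fold with a 95% interval from 1.42 to 1.65 (limma adjusted p = 0.00066). The other 3 of these 4 genes, AT3G12620, AT3G51370 and AT3G17090, missed the threshold, with log2 changes of -0.14, -0.13 and -0.10. Whether AT3G55050 and the SAUR genes responded differently was not tested, nor was whether SAUR proteins act on the product of AT3G55050.

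**Figure D3:**
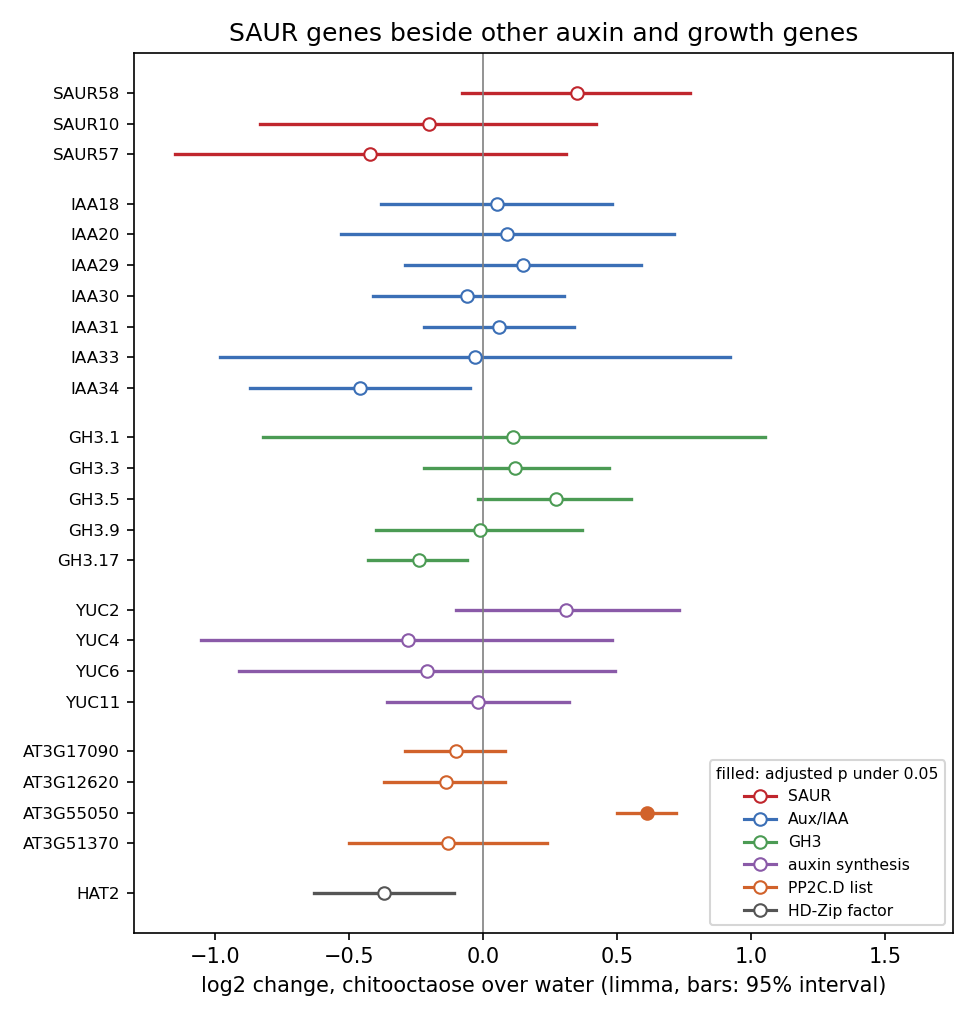
Fitted log2 change of chitooctaose over water (limma, 3 against 3 arrays), with its 95% interval as a bar, for the 3 SAUR genes and 21 other auxin and growth genes, coloured by list, with a filled point where the adjusted p was under 0.05. AT3G55050 of the PP2C.D list is the filled point, at 0.61, and the intervals of all 3 SAUR genes include 0.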

How the data were processed

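Each deposited value is the linear intensity of 1 probe set on 1 of 6 Affymetrix arrays, hybridised with biotin-labelled cRNA of 7 µg total RNA, per the labels' protocols. How the authors summarised, background-corrected and scaled them is not given in the sources used here. Array medians lay between 155.7 and 169.2, and 163 to 213 values per array were below 0. Titles and protocols give 30 min of exposure and were followed. The series text says 3 min, and the chitooctaose arrays' description field says water.

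Of 22810 probe sets, 64 controls were left out. Platform annotation gave exactly 1 gene for 13513 and several for 503, and 8730 have no name here. The 1-gene probe sets were matched to a RefSeq gene table (assembly TAIR10.1), 13436 by gene number and 48 by locus code, and 29 kept the platform's name. The SAUR genes matched by locus code. The probe set with the highest mean stood for a gene. Intensities below 16 were set to 16, which touched 3.81 to 4.91% of an array's values, and log2 was taken. Chitooctaose was compared with water in limma 3.58.1 (R 4.3.3; lmFit, eBayes with a mean-variance trend, 2-sided), adjusted by Benjamini-Hochberg over 22746 probe sets, and the fit was tested on simulated data. The number of arrays limits the precision.

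The members, lists, tests and alternatives were chosen with earlier results of these data known. The naming rule took the SAUR genes and, from each pathway list, every called gene or else the one with the highest mean. IAA34, GH3.17, YUC4, the 3 uncalled PP2C.D genes, IAA31, IAA33 and the organ markers were named after their values were seen. The labels do not say that the replicate number marks a shared day, so the numbers were not used to pair arrays. Same-numbered arrays deviated from their group means with correlations of 0.05, 0.03 and -0.10. The alternatives were other floors, normalizations and variance models, a filter on dim probe sets, a replicate block, leaving out each array and averaging a gene's probe sets, which cannot matter for the SAUR genes with 1 each.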

Additional observations from a re-analysis of the deposited data

How the results depend on the processing

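Under the 13 settings that kept the SAUR genes and could move their values, 0 of the 3 rose and 0 fell. The filter that drops the dimmest 40% of probe sets removed all 3, so it gives no value for them. The adjusted p ranged from 0.476 to 0.872 for SAUR57, from 0.656 to 1.0 for SAUR10 and from 0.276 to 1.0 for SAUR58. The log2 changes ranged from -0.58 to -0.12, from -0.39 to 0 and from 0 to 0.58. The value of 0 came with a floor of 64, which lies above each array of SAUR10 and SAUR58. Neither gene could be called under that setting, so it says nothing about them. A floor of 64 also lies above SAUR57 in water replicate 1 and in chitooctaose replicates 1 and 2. The SAUR57 change of -0.14 under that setting was therefore set in part by the floor. With single arrays left out, 0 rose and 0 fell each time. SAUR57 was then lower without overlap without water replicate 1, as were 15.1% of all probe sets. SAUR58 was higher without overlap without water replicate 2 or chitooctaose replicate 1, as were 11.3% and 11.2%. With the replicate number as a block, 0 rose and 0 fell (limma adjusted p = 0.476 for SAUR57, 0.806 for SAUR10 and 0.276 for SAUR58), and the block changed no call. Of the other auxin and growth genes 1 was called under each setting, AT3G55050 (adjusted p up to 0.0140), except without chitooctaose replicate 3, where HAT2 made it 2; with single arrays left out the count was 1 to 2. SAUR58 was so near the floor that the choice of floor sets its fitted change.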
